A study of Mus musculus with 34 samples.

Results

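The genes described here are those of the Wnt pathway's ligands, receptors and secreted antagonists, with Axin1, Axin2 and Lef1. Probes on a mouse CpG island array were taken when their gene name was Wnt, Fzd, Sfrp or Dkk with a number, or was Axin1, Axin2, Wif1, Lef1, Lrp5 or Lrp6. Neighbouring probes no more than 500 bases apart were joined into islands, and an island was kept with at least 3 such probes. This gave 61 islands of 36 genes, with 501 probes, among 13616 islands scored on the array. Ligand genes held 40 of the islands, Frizzled receptors 8, the co-receptors Lrp5 and Lrp6 2, secreted antagonists 7 and the intracellular members Axin1, Axin2 and Lef1 4. A pair of further runs fell short, 1 of 2 probes at Wnt7a and 1 at Sfrp4 in which only 1 of 4 probes carried that name alone. Wnt8a, Wnt16, Fzd3, Fzd9, Dkk1 and Dkk4 were not analysed here.

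Methylated DNA was immunoprecipitated (mDIP) with an antibody against 5-methylcytidine and hybridised together with its input DNA, 1 array per sample, 34 arrays in all. The value of an island, its Island Methylation Score (IMS), was the mean over its probes of the log ratio of bound over input DNA, expressed as a Z-score within each array. An IMS near 0 is an array's average, and the study's own cut-offs of 0.75 for methylated and 0 for unmethylated were used as reading marks. The study formed its Z-scores according to probe melting temperature, which was not done here. Passing a mark is therefore not the study's own call of methylation. The score orders islands within an array and is not a percentage of methylated CpGs. Adult tissue was sampled in 16 arrays, 2 each of colon, pancreas, brain, kidney, liver, lung, muscle and spleen from 3 month old C57Bl/6 mice of both sexes. Whole embryos gave 5 arrays, 1 each at 8.5, 9.5, 10.5, 11.5 and 12.5 days post coitum (dpc). Undifferentiated ES cells were 3 lines, EB5, J1 and TT2, with 1 array each. Differentiated ES cells were 5 arrays: embryoid bodies grown from TT2, retinoic acid treated cells, 2 arrays of endoderm and 1 of mesoderm. The endoderm and mesoderm cells were sorted from an EB5 derived reporter line treated with Activin. For the retinoic acid treated cells the labels and a figure legend of the study give TT2 as the parent while its methods name J1, and for the 2 teratomas the labels give J1 and the methods D3,C4. The teratomas grew under the skin of NOD-SCID mice and can hold host cells. Ex vivo beta cells, the beta cell line Min6 and the alpha cell line aTC had 1 array each. By the study's account the beta cells were sorted with antibodies against insulin from islets of mice with a Pdx1-GFP transgene. The ages of these mice ran from below to well above 3 months. No expression was measured, so the labelled tissues and cell types could not be checked against markers.

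Wnt proteins are secreted ligands that bind Frizzled receptors together with the co-receptors Lrp5 or Lrp6. Binding takes apart the Axin scaffold that marks beta-catenin for destruction, and beta-catenin then acts on target genes with factors such as Lef1. Sfrp and Wif1 proteins are secreted and bind Wnt ligands outside the cell, Dkk proteins act on the co-receptors, and promoter CpG islands of several of these antagonists are known to become methylated in tumours.

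Promoter sequences are shown for 5 genes from the RefSeq table of build GRCm38.p6: Sfrp2, Wnt3, Wnt2 and Fzd7, with islands that differ between cell classes below, and Sfrp5, the antagonist with the highest scores in the pancreatic cell lines. Each runs 5′ to 3′ over 300 bases, from 250 before to 50 after the gene's start, with every CG dinucleotide in capitals. The windows are Sfrp2 (chr3:83766071-83766370, plus strand, 22 CG), Wnt3 (chr11:103773925-103774224, plus strand, 24 CG), Wnt2 (chr6:18030396-18030695, minus strand, 27 CG), Fzd7 (chr1:59481897-59482196, plus strand, 24 CG) and Sfrp5 (chr19:42202203-42202502, minus strand, 15 CG). The table held 31 windows of 25 of the 36 genes, with a median of 25 CG against 7 over all 32851 windows of the table. At least 15 CG stood in 25 of the 31 windows and in 34.6% of all windows. The 36 genes were kept for having an island on a CpG island array, while the table was not chosen so. That choice by itself favours high CG counts, and the contrast is not read as a trait of Wnt genes. The array files name no build for their probe positions, so whether an island described below covers the window of the same gene cannot be told, and island positions are given as in the files.
Sfrp2: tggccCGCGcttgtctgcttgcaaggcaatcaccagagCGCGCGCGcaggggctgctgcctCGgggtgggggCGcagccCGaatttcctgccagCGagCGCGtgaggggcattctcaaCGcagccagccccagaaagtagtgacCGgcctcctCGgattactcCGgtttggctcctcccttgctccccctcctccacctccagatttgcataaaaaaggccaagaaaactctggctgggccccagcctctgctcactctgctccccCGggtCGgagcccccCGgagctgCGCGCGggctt
Wnt3: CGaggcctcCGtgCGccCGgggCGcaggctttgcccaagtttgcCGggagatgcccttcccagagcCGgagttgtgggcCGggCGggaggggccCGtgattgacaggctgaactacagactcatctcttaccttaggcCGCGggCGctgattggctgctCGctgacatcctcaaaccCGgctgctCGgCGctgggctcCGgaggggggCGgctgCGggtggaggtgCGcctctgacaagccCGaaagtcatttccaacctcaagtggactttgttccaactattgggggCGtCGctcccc
Wnt2: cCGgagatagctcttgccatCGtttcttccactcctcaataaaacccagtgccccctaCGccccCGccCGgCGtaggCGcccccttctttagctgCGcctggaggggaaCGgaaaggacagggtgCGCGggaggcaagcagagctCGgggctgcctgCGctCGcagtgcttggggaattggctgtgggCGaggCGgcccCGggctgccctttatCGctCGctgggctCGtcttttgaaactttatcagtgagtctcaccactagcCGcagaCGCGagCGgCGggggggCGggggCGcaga
Fzd7: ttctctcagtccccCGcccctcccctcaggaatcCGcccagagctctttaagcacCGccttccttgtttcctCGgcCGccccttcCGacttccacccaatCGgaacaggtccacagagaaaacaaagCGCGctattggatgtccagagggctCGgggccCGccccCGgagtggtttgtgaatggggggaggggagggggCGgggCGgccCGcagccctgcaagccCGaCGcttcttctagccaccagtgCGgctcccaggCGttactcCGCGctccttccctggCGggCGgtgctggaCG
Sfrp5: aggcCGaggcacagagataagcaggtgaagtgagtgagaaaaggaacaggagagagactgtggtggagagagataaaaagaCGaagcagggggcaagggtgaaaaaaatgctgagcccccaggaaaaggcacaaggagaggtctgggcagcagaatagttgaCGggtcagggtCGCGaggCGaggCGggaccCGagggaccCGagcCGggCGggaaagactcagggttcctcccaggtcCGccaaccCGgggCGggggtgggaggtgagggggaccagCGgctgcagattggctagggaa

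The arrays were of 2 grids, one of 97651 probes (10 adult, 2 undifferentiated and 2 differentiated ES cell arrays) and one of 88737 (all others, with every embryo). The median signal over local background lay between 3.07 and 7.34 for input and between 1.54 and 5.59 for bound DNA. The scanner ratios of the J1 array correlated with the authors' processed values of that array at r = 0.113, against 0.894 to 0.991 on the other 33 arrays, so counts of Wnt islands in the comparisons of undifferentiated ES cells are given with and without it. Arrays of a class are the replicates of each test, and nothing in the labels says that the 16 adult arrays came from separate animals. By the labels the differentiated arrays came from EB5 and TT2 only, and the endoderm and mesoderm arrays share the same EB5 derived line. They were fitted as separate replicates, so the p-values take no account of a shared line.

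In adult tissue a minority of the Wnt islands stood well above the rest. An IMS above 0.75 on each of the 16 arrays was found at 9 of 61 islands (14.8%, against 7.37% of all islands), and all 9 belonged to ligand genes. They lay at Wnt3 (islands 4 and 5), Wnt3a (island 1), Wnt4 (island 2), Wnt5a (island 3), Wnt5b, Wnt6 (island 2) and Wnt7b (islands 1 and 2), with islands numbered along the chromosome. Their adult means ran from 2.09 at Wnt7b island 2 to 2.93 at Wnt5a island 3. At the other end, 9 islands were below 0 on each adult array (14.8%, against 29.8% of all islands). These were Wnt2, Wnt2b island 1, Wnt5a island 2, Wnt9a, Wnt11 island 1, Dkk2, Wif1, Axin2 and Lef1 island 2. Most islands fell in neither set, and among these Fzd5, a receptor island of 27 probes, had the highest adult mean, 1.17 ± 0.35 (SD, n = 16).

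**Figure D1:**
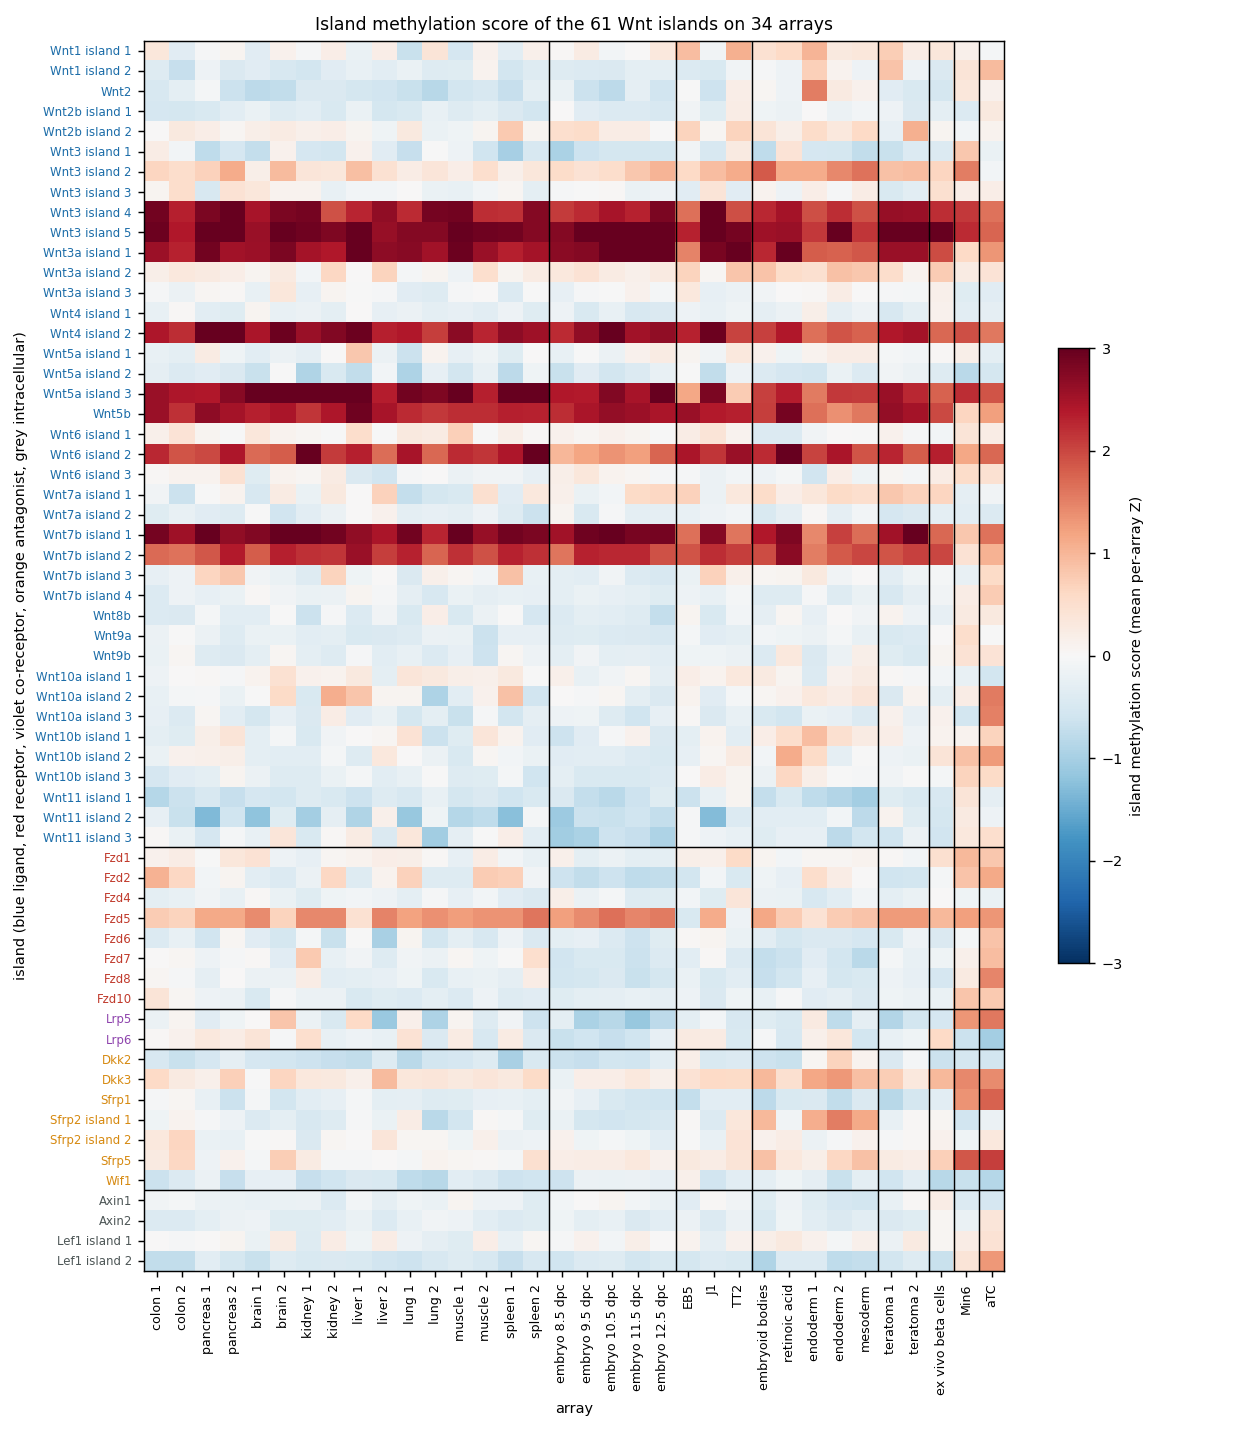
Island methylation score (colour, mean per-array Z; the scale ends at -3 and 3) of the 61 islands in rows, ordered by role and gene, on the 34 arrays in columns, with lines between classes and roles. The 9 dark red rows are ligand islands above 0.75 on each adult array.

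Several islands of a single gene often differed. The array held 2 to 5 islands for 14 of the genes, and 6 of these (Wnt3, Wnt3a, Wnt4, Wnt5a, Wnt6 and Wnt7b) had both an island above 0.75 on every adult array and islands with a mean under 0.5. Wnt3, a ligand needed for gastrulation, had 5 islands over its chromosome 11 stretch. Islands 3 and 4 lay 685 bases apart and had adult means of 0.00099 ± 0.27 and 2.60 ± 0.39 (SD, n = 16). At Wnt6 islands 2 and 3 were 821 bases apart, with adult means of 2.21 ± 0.45 and -0.058 ± 0.26. In each of these 6 genes the gap between islands, from 2.27 to 3.38 in adult mean IMS, was larger than the whole range of any of their islands over the adult arrays. Among the ligands, 4 pairs of genes were neighbours on the array's map, Wnt6 with Wnt10a, Wnt3a with Wnt9a, Wnt9b with Wnt3 and Wnt10b with Wnt1, at 7.0, 15.5, 23.5 and 11.2 kb between their nearest islands.

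**Figure D2:**
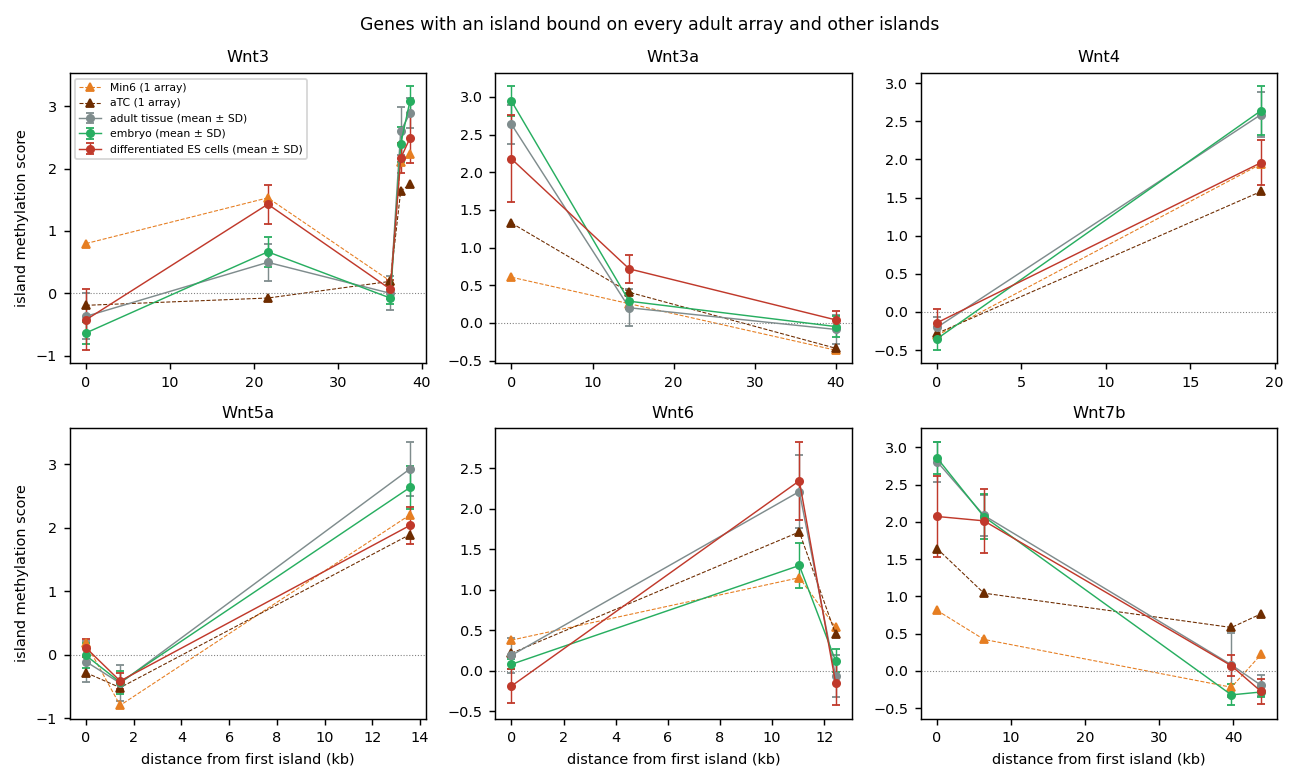
Island methylation score (y axis) against the distance of each island's centre from the gene's first island (x axis, kb) for the 6 genes with an island above 0.75 on every adult array and other islands. Points with bars are class means ± SD (16 adult, 5 embryo and 5 differentiated ES cell arrays), triangles are single arrays of Min6 and aTC, and lines only join islands of a class. Wnt3 islands 3 and 4 lie 685 bases apart and have adult means of 0.00099 and 2.60.

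With 2 arrays per tissue, tissues were hardly told apart over the whole array, the Wnt islands included. No Wnt island passed limma's moderated F test over the 8 tissues (Benjamini-Hochberg over all islands), where 11 of 13616 islands did (0.0808%), and 1 had an unadjusted p under 0.05. No Wnt island passed in any contrast of a tissue against the other 7, where 0.72% of all islands did for colon and 0.0514% for pancreas. The 2 arrays of a tissue could differ widely: Lrp5 read 0.60 and -1.12 in liver, Wnt10a island 2 read -0.47 and 1.08 in kidney, and Fzd2 read -0.38 and 0.75 in muscle. At Fzd2 the 2 arrays differed by more than 0.75 in 4 of the 8 tissues.

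Differentiated ES cells differed from adult tissue at 22 of the 61 Wnt islands, in 20 genes, with 13 higher and 9 lower (limma, adjusted p under 0.05 over all islands). Of all 13616 islands 23.2% passed, 14.4% higher and 8.73% lower, and the median difference was close to that of the array (-0.013 against -0.0099 over all islands). Ligands accounted for 9 of the higher and 5 of the lower islands. Among the 7 antagonist islands 4 were higher (Sfrp2 island 1, Dkk3, Dkk2 and Sfrp5) and 1 lower (Sfrp1), while no receptor, co-receptor or intracellular island was higher and Fzd7, Fzd8 and Axin1 were lower. The 26 ligand islands that did not pass had differences from -0.46 at Wnt3a island 1 to 0.36 at Wnt10b island 2, and they included Wnt8b (0.15), Wnt9a (0.15), Wnt9b (0.13) and all 3 islands each of Wnt10a and Wnt11. Every probe was higher in 12 of the 13 higher islands (73 of 74 probes), the exception being Wnt2b island 1. Every probe was lower in 6 of the 9 lower ones (71 of 82 probes), the exceptions being Fzd7, Fzd8 and Axin1. The calls were made on the means of these same probes, so the probe counts are no separate support for them. The slide and scan day bear on this comparison: with slide as a block 12 islands passed (6 higher, 6 lower, 9 shared with the 22), with scan day 10 (5 higher, 5 lower, 9 shared), and with only the arrays of the smaller grid 5 (3 higher, 2 lower, all among the 22). The authors' processed table held 29 of the islands, of which 7 were higher and 1 lower, and with software version as a block 7 were higher and 10 lower. With log2 ratios centred on the median but not divided by the array's SD, 6 islands were higher and 9 lower, and after normexp background correction 4 were higher and 5 lower. On the slide shared by endoderm 2 and pancreas 1 all 22 islands differed in the direction of the fit, and on that shared by embryoid bodies and brain 2 all but Dkk2 did, though these arrays are part of the fit.

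**Figure D3:**
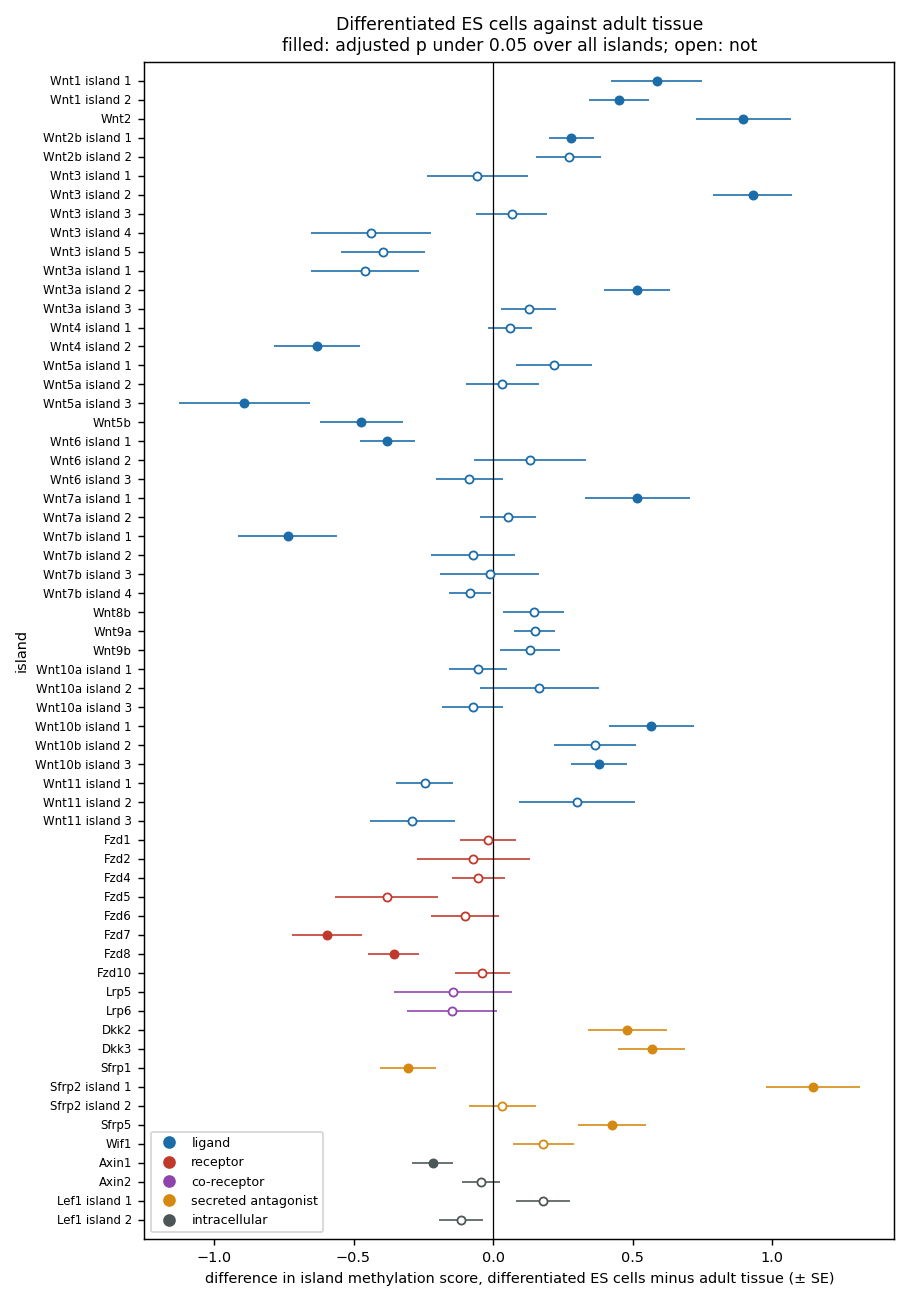
Difference in island methylation score between differentiated ES cells and adult tissue (x axis, ± SE from limma) for the 61 islands (y axis), coloured by role. Filled points passed an adjusted p of 0.05 over all islands (22, with 13 higher and 9 lower). Sfrp2 island 1 is the point farthest to the right and Wnt5a island 3 that farthest to the left.

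Sfrp2, which encodes a secreted Frizzled-related protein that binds Wnt ligands, had the largest difference above adult tissue in differentiated ES cells. Its island 1 (chr3:83850058-83850511, 5 probes) ranged in adult tissue from -0.81 to 0.21 with a median of -0.18. It read 0.97 in embryoid bodies, -0.10 in retinoic acid treated cells, 1.09 and 1.53 in the endoderm arrays and 1.14 in mesoderm. Only the retinoic acid array lay within the adult range. The difference was 1.15 ± 0.17 (SE), adjusted p = 8.24e-06. It was 1.39 against embryos (adjusted p = 2.18e-05), whose arrays from 8.5 to 12.5 dpc read -0.20, -0.53, -0.59, -0.52 and -0.48. Undifferentiated cells read 0.032 in EB5, -0.41 in J1 and 0.34 in TT2. Differentiated cells were higher than these by 0.94 ± 0.24 (SE), limma adjusted p = 0.0192, and no other Wnt island was higher in that comparison. No differentiated array shared a slide or a scan day with an undifferentiated one. The teratomas, at -0.21 and 0.03, were different from the differentiated cells by -1.02 ± 0.27 (SE), limma adjusted p = 0.0203. By the labels the parent lines differ too, and no slide or scan day held both classes. All 5 probes were higher in differentiated ES cells than in adult tissue, from 0.67 to 1.12 against -0.71 to -0.025 in class means. The gene's island 2 began 1254 bases on (11 probes) and read 0.056 ± 0.16 in differentiated cells and 0.022 ± 0.26 in adult tissue. Without the retinoic acid array the difference of island 1 from adult tissue was 1.40, and the change on differentiation was 0.74 without J1 and missed the threshold when J1, EB5 or endoderm 2 was left out or slide was a block.

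Of the other antagonists, Dkk3, a divergent member of the Dickkopf family, had 4 probes at chr7:111949393-111949753. The adult arrays ranged from -0.005 to 0.95 with a median of 0.32, and the differentiated arrays read 0.97 in embryoid bodies, 0.48 in retinoic acid treated cells, 1.15 and 1.30 in the endoderm arrays and 0.91 in mesoderm. The ranges overlapped, with embryoid bodies and both endoderm arrays above the highest adult array, and the difference was 0.57 ± 0.12 (SE), adjusted p = 0.000799. Embryos ranged from -0.20 to 0.32, undifferentiated cells read 0.43 in EB5, 0.59 in J1 and 0.57 in TT2, and the teratomas 0.74 and 0.33. Dkk3 missed the threshold with median-centred ratios, after normexp and on the smaller grid alone. Dkk2, which modulates Lrp5 and Lrp6, ranged in adult tissue from -0.98 to -0.27 with a median of -0.53. It read -0.61 in embryoid bodies, -0.66 in retinoic acid treated cells, 0.068 and 0.66 in the endoderm arrays and 0.11 in mesoderm, so the embryoid body and retinoic acid arrays lay within the adult range and the EB5 derived arrays above it. Its difference of 0.48 became 0.29 without endoderm 2 and then missed the threshold, as it did without mesoderm and with slide or scan day as a block. Sfrp5 was higher by 0.43, which missed the threshold without embryoid bodies or mesoderm and with slide as a block. Sfrp1 was lower by a difference of -0.31, from -0.26 to -0.56, so both classes lay below 0, and it missed the threshold without embryoid bodies or endoderm 2 and with slide as a block. Wif1 and Sfrp2 island 2 did not pass, with differences of 0.18 and 0.034.

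Wnt3 island 2 (chr11:103611494-103611942, 4 probes) was the ligand island with the largest difference above adult tissue. Adult tissue ranged from 0.16 to 1.11 with a median of 0.41, and the differentiated arrays read 1.83 in embryoid bodies, 1.12 in retinoic acid treated cells, 1.12 and 1.44 in the endoderm arrays and 1.63 in mesoderm. Each differentiated array lay above each adult array, which held for 2 Wnt islands (the other was Wnt2b island 1) and for 2.51% of all islands, while no Wnt island had each differentiated array below each adult array (0.911% of all). The difference was 0.93 ± 0.14 (SE), adjusted p = 1.33e-05. Embryos ranged from 0.44 to 1.02, undifferentiated cells read 0.61 in EB5, 0.92 in J1 and 1.12 in TT2, and the teratomas 0.88 and 0.93. In contrast Wnt3 islands 1 and 3 did not pass (differences of -0.056 and 0.066).

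Wnt2, a ligand with roles in lung and placenta, had 1 island of 4 probes (chr6:17980189-17980692). It was below 0 on each adult array, from -0.84 to -0.068 with a median of -0.54, and read 0.065 in embryoid bodies, -0.16 in retinoic acid treated cells, 1.53 and 0.27 in the endoderm arrays and 0.13 in mesoderm after differentiation. The retinoic acid array lay within the adult range and the other 4 above it, endoderm 1 far above the rest. The difference of 0.90 ± 0.17 (SE), adjusted p = 0.000222 became 0.61 without endoderm 1, still past the threshold, and with scan day as a block it was 0.47 and missed it. Embryos ranged from -0.79 to -0.19, undifferentiated cells read -0.0022 in EB5, -0.62 in J1 and 0.21 in TT2, and the teratomas -0.34 and -0.47.

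Wnt1, needed for the midbrain, and its neighbour Wnt10b both held islands higher in differentiated ES cells than in adult tissue. Wnt1 island 1 (chr15:98617542-98618211, 4 probes) ranged in adult tissue from -0.67 to 0.38 with a median of 0.025 and read 0.45 in embryoid bodies, 0.61 in retinoic acid treated cells, 1.01 and 0.28 in the endoderm arrays and 0.34 in mesoderm. The ranges overlapped, and the difference was 0.59 ± 0.16 (SE), adjusted p = 0.00847. Its undifferentiated values were 0.93 in EB5, -0.11 in J1 and 1.06 in TT2, so EB5 and TT2 already stood above the adult range, while embryos ranged from -0.084 to 0.32 and the teratomas read 0.75 and 0.23. Wnt10b island 1 (chr15:98600508-98600980, 5 probes) ranged in adult tissue from -0.65 to 0.43 with a median of -0.08 and read 0.21 in embryoid bodies, 0.54 in retinoic acid treated cells, 0.92 and 0.49 in the endoderm arrays and 0.25 in mesoderm. The difference was 0.57 ± 0.15 (SE), adjusted p = 0.00715. Undifferentiated cells read -0.30 in EB5, 0.11 in J1 and -0.33 in TT2, embryos ranged from -0.63 to 0.14 and the teratomas read 0.20 and -0.16. Both differences missed the threshold with slide, scan day or software version as a block. Wnt1 island 2 was also higher (0.45), with endoderm 1 at 0.71 and the other differentiated arrays between -0.16 and 0.10, against -0.70 to 0.10 in adult tissue. Without endoderm 1 its difference was 0.30, still past the threshold, and it missed it with scan day or software version as a block. Wnt10b island 3 was higher by 0.38, with the retinoic acid array at 0.63 and the others between -0.18 and 0.17, against -0.60 to 0.073 in adult tissue. Without the retinoic acid array its difference was 0.25 and missed the threshold, as it did with slide, scan day or software version as a block. Wnt10b island 2 did not pass (0.36). The remaining ligand islands higher than in adult tissue were Wnt3a island 2 (0.52), Wnt7a island 1 (0.52) and Wnt2b island 1 (0.28). The last 2 missed the threshold with slide, scan day or software version as a block. Wnt7a island 1 also missed it without TT2, embryoid bodies, mesoderm or either endoderm array. Differentiated arrays ranged from 0.47 to 0.87, from 0.20 to 0.58 and from -0.17 to 0.0024 at these islands in that order. Before differentiation EB5, J1 and TT2 read 0.68, 0.060 and 0.82 at Wnt3a island 2. They read 0.70, -0.18 and 0.31 at Wnt7a island 1 and -0.11, -0.36 and 0.23 at Wnt2b island 1.

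Among the receptors, Fzd7 (chr1:59426467-59428537, 17 probes) was lower in differentiated ES cells than in adult tissue. Adult arrays ranged from -0.39 to 0.78 with a median of -0.073, with kidney 1 at 0.78 and spleen 2 at 0.50 the highest. The differentiated arrays read -0.71 in embryoid bodies, -0.65 in retinoic acid treated cells, -0.34 and -0.54 in the endoderm arrays and -0.81 in mesoderm, all but endoderm 1 below the adult range. The difference was -0.59 ± 0.13 (SE), adjusted p = 0.000793, and it missed the threshold with slide or scan day as a block. Embryos at -0.58, -0.45, -0.46, -0.64 and -0.42 lay below every adult array too, and differed from adult tissue by -0.49 ± 0.13 (SE), adjusted p = 0.0118. Undifferentiated cells read -0.33 in EB5, 0.037 in J1 and -0.42 in TT2, and the teratomas -0.055 and -0.23. Fzd8 was likewise lower than in adult tissue (-0.36 in differentiated cells and -0.40 in embryos), the first missing the threshold with slide or scan day as a block. The islands of Fzd1, Fzd2, Fzd4, Fzd5, Fzd6 and Fzd10 did not pass, with differences from -0.38 at Fzd5 to -0.018 at Fzd1, and neither did Lrp5 (-0.14) or Lrp6 (-0.15). Of the intracellular members Axin1 was lower by a difference of -0.22, which missed the threshold without embryoid bodies, endoderm 2 or mesoderm and with slide or scan day as a block, whereas Axin2, a target gene of the pathway as well as its inhibitor, gave -0.042 and the Lef1 islands 0.18 and -0.11.

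**Figure D4:**
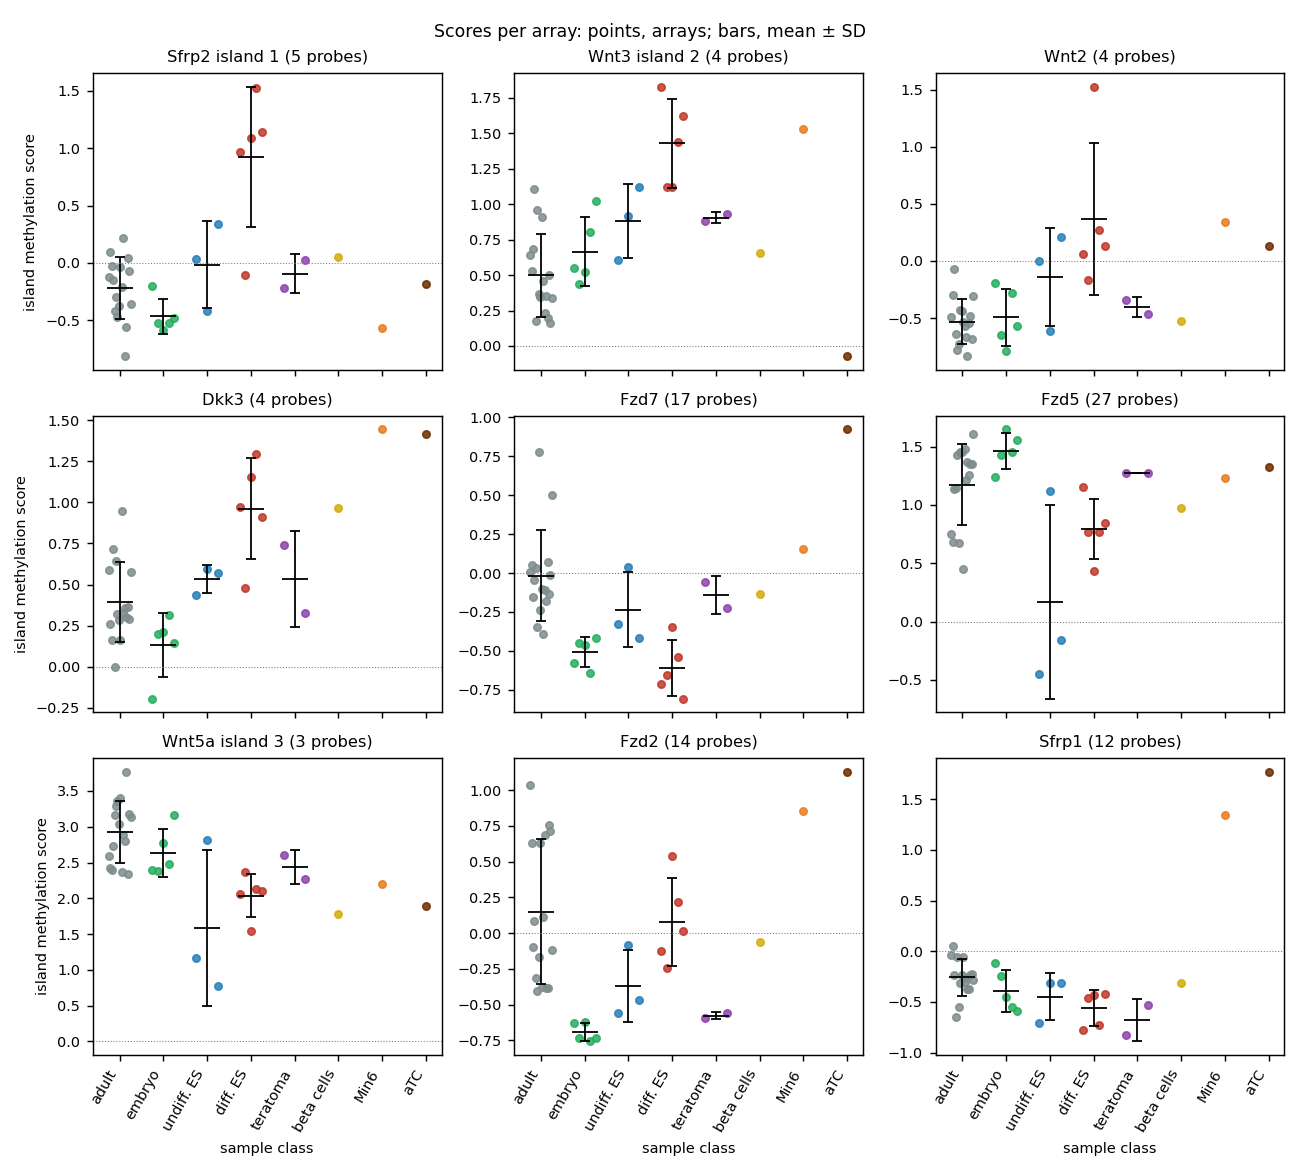
Island methylation score (y axis) of 9 islands by sample class (x axis). Each point is an array, and bars give the mean ± SD where a class has more than 1 array. Sfrp2 island 1 is high on 4 of 5 differentiated ES cell arrays, Fzd5 is low in EB5 and TT2, and Sfrp1 is high in Min6 and aTC.

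The 9 ligand islands that were high on every adult array stayed above 0.75 on every differentiated array as well, but 4 of them were lower (Wnt5a island 3, Wnt7b island 1, Wnt4 island 2 and Wnt5b) and none was higher. Of the 1004 islands of the array that were high in every adult sample, 41.8% were lower in differentiated ES cells, with a median difference of -0.46, the same as that of the 9 Wnt islands, of which 44.4% were lower. Both sets were picked for high adult values, which can by itself make other classes look lower. Wnt5a island 3 (chr14:27345120-27345398, 3 probes) ranged in adult tissue from 2.34 to 3.77 with a median of 2.96 and read 2.06 in embryoid bodies, 2.36 in retinoic acid treated cells, 1.55 and 2.13 in the endoderm arrays and 2.10 in mesoderm. It overlapped the adult range only in the retinoic acid array, and the difference was -0.89 ± 0.24 (SE), adjusted p = 0.00618. It missed the threshold with slide (-0.75), scan day (-0.77) or software version (-0.66) as a block. Wnt7b island 1 (chr15:85365061-85365430, 3 probes) ranged from 2.29 to 3.28 with a median of 2.85 and read 2.40 in embryoid bodies, 2.79 in retinoic acid treated cells, 1.45 and 2.04 in the endoderm arrays and 1.67 in mesoderm. There embryoid bodies and retinoic acid treated cells lay within the adult range and the EB5 derived arrays below it, with a difference of -0.74 ± 0.18 (SE), adjusted p = 0.00288. Wnt4 island 2 (chr4:136568445-136568983, 5 probes) ranged from 2.08 to 3.02 with a median of 2.57 and read 2.06 in embryoid bodies, 2.41 in retinoic acid treated cells, 1.65 and 1.89 in the endoderm arrays and 1.78 in mesoderm. Only the retinoic acid array was within the adult range, and the difference was -0.63 ± 0.16 (SE), adjusted p = 0.00341. Embryos at these 3 islands ranged from 2.38 to 3.16, 2.52 to 3.12 and 2.25 to 3.12 in that order. Wnt5b read 2.06 in embryoid bodies, 2.87 in retinoic acid treated cells, 1.66 and 1.37 in the endoderm arrays and 1.59 in mesoderm, against 2.11 to 2.91 in adult tissue with a median of 2.33. Its difference of -0.47 became -0.71 without the retinoic acid array, and it missed the threshold without mesoderm or either endoderm array. On the smaller grid alone none of these 4 islands passed. The remaining ligand island that was lower, Wnt6 island 1 (chr1:74704842-74705372, 5 probes), was not among the high ones, with adult arrays from -0.019 to 0.71 and a median of 0.13. It read -0.41 in embryoid bodies, -0.40 in retinoic acid treated cells, -0.12 and 0.011 in the endoderm arrays and -0.016 in mesoderm, with endoderm 2 and mesoderm inside the adult range. The difference of -0.38 passed on the smaller grid alone and missed the threshold with slide or scan day as a block.

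Before differentiation, 3 of 61 islands differed from adult tissue (limma, 2.3% of all islands), all lower: Wnt5a island 3, Fzd5 and Wnt7b island 1. None was higher (0.984% of all islands were, and 1.31% lower). At each of the 3, EB5 and TT2 lay below the adult range and J1 within it, and no Wnt island had all 3 lines below every adult array (0.0881% of all islands did) or above (0.61%). Fzd5, a receptor required in the yolk sac and eye, had the longest island of the group (chr1:64669020-64672357, 27 probes). Its adult arrays ranged from 0.45 to 1.61 with a median of 1.30, and the ES cell lines read -0.45 in EB5, 1.12 in J1 and -0.15 in TT2. J1 thus lay within the adult range and the other lines below 0, while embryos at 1.24, 1.43, 1.65, 1.45 and 1.56 were in its upper part, or just above it at 10.5 dpc. The difference from adult tissue was -1.0 ± 0.23 (SE), adjusted p = 0.0169. After differentiation the arrays read 1.15 in embryoid bodies, 0.77 in retinoic acid treated cells, 0.43 and 0.77 in the endoderm arrays and 0.85 in mesoderm, and the teratomas 1.28 and 1.28. At Wnt5a island 3 the lines read 1.17 in EB5, 2.82 in J1 and 0.77 in TT2 with a difference of -1.35 ± 0.29 (SE), adjusted p = 0.0133, and at Wnt7b island 1 1.65 in EB5, 2.76 in J1 and 1.61 in TT2 with -0.80 ± 0.22 (SE), adjusted p = 0.0477. Teratomas read 2.60 and 2.26 and 2.53 and 2.99 at these islands. Without J1 the differences were -1.96 at Wnt5a island 3, -1.48 at Fzd5 and -1.18 at Wnt7b island 1. Then 8 Wnt islands passed, these 3 among them, with 4 higher and 4 lower, and the share of all islands rose to 8.45%. The 4 higher ones were Wnt1 island 1, Wnt2b islands 1 and 2 and Wnt3a island 2, and Wnt3 island 4 was the other lower one. Without EB5 or without TT2 no Wnt island passed, and none did with scan day or software version as a block. With slide as a block Wnt7b island 1 passed alone.

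Between undifferentiated and differentiated cells 2 of 61 islands passed (5.43% of all islands, 3.51% higher and 1.92% lower), Sfrp2 island 1, described above, and Wnt11 island 1, which was lower. No slide or scan day held arrays of both classes, so class and batch cannot be told apart directly. The fit did not pair derivatives with their parent line, and by the labels J1 had no derivative among the differentiated arrays. Wnt11 acts in convergent extension and in the kidney, and its island 1 (chr7:98709956-98710580, 6 probes) read -0.66 in EB5, -0.21 in J1 and 0.083 in TT2 before and -0.71 in embryoid bodies, -0.45 in retinoic acid treated cells, -0.75 and -0.87 in the endoderm arrays and -1.02 in mesoderm after differentiation. The groups overlapped at EB5, which lay among the differentiated arrays, and the difference was -0.50 ± 0.14 (SE), adjusted p = 0.0379. Adult tissue ranged from -0.87 to -0.21 with a median of -0.48, embryos from -0.82 to -0.36, and the teratomas read -0.37 and -0.45. The difference of Wnt11 island 1 missed the threshold with slide (-0.32) or scan day (-0.50) as a block and when J1 (-0.47), TT2 (-0.33), embryoid bodies, endoderm 1, endoderm 2 or mesoderm was left out, and with scan day as a block Lef1 island 2 passed beside Sfrp2 island 1. Without endoderm 2 no island passed, and without retinoic acid treated cells 4 did. Leaving out EB5, TT2, embryoid bodies, endoderm 1 or mesoderm in turn left 1. Without J1 the 2 that passed were Fzd5 and Wnt5a island 3, both higher, in place of these, where 3.58% of all islands passed. Whether the change differed between EB5 and TT2 derivatives was tested as an interaction, in which no Wnt island and none of the 13616 islands passed (limma, 1 Wnt island with an unadjusted p under 0.05). That test takes TT2 as the parent of the retinoic acid treated cells, and parent line and kind of differentiation cannot be told apart in it.

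Embryos differed from adult tissue at 6 of 61 islands, all lower (3.47% of all islands were lower, 5.17% higher and 8.64% passed in all). The 16 adult arrays are the same as in the comparisons above. Receptors were 3 of the 6, Fzd2, Fzd7 and Fzd8, with the co-receptor Lrp6 (-0.59) and the ligand islands Wnt6 island 2 and Wnt11 island 3. Wnt6 island 2 (chr1:74715983-74716320, 3 probes) ranged in adult tissue from 1.67 to 3.26 with a median of 2.19 and read 1.00, 1.18, 1.34, 1.24 and 1.74 from 8.5 to 12.5 dpc. Only the 12.5 dpc embryo reached the adult range, and the difference was -0.91 ± 0.20 (SE), adjusted p = 0.00385. Differentiated cells, at 2.25 in embryoid bodies, 3.12 in retinoic acid treated cells, 2.02 and 2.45 in the endoderm arrays and 1.88 in mesoderm, lay within the adult range, undifferentiated cells read 2.44 in EB5, 2.15 in J1 and 2.58 in TT2 and the teratomas 2.29 and 1.81. Fzd2 (chr11:102420669-102422602, 14 probes) was spread widely in adult tissue, from -0.40 to 1.04 with a median of -0.0025, and lay between -0.75 and -0.62 in embryos, below each adult array. The difference was -0.84 ± 0.20 (SE), adjusted p = 0.00768, undifferentiated cells read -0.56 in EB5, -0.083 in J1 and -0.46 in TT2, differentiated arrays -0.13 in embryoid bodies, -0.24 in retinoic acid treated cells, 0.54 and 0.22 in the endoderm arrays and 0.014 in mesoderm, and the teratomas, like the embryos, -0.59 and -0.56. Embryos lay below every adult array at Fzd2 and Fzd7, as at 1.29% of all islands, and above every adult array at no Wnt island (1.31% of all). Wnt11 island 3 (chr7:98713906-98714662, 6 probes) ranged in adult tissue from -1.04 to 0.37 with a median of -0.13 and read -1.04, -0.96, -0.61, -0.68 and -0.92 in embryos. The ranges overlapped through lung 2 at -1.04, and the difference was -0.70 ± 0.15 (SE), adjusted p = 0.00336. Undifferentiated cells read -0.041 in EB5, -0.14 in J1 and -0.21 in TT2, differentiated arrays -0.37 in embryoid bodies, -0.24 in retinoic acid treated cells, -0.24 and -0.78 in the endoderm arrays and -0.54 in mesoderm and the teratomas -0.60 and -0.18. No embryo array shared a slide or a scan day with an adult array. With slide, scan day or software version as a block none of the 6 passed, and on the smaller grid alone only Fzd2 did. Embryo and batch cannot be told apart at any of the 6.

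Set against embryos, differentiated ES cells differed at 19 of 61 islands, 12 higher and 7 lower, where 21.1% of all islands passed (11.8% higher, 9.29% lower). The higher ones were ligands, antagonists and Fzd2, with differences of 1.39 at Sfrp2 island 1, 1.04 at Wnt6 island 2, 0.86 at Wnt2, 0.83 at Dkk3, 0.77 at Fzd2, 0.76 at Wnt3 island 2 and 0.74 at Wnt10b island 1. The remaining higher islands, Wnt10b islands 2 and 3, Wnt1 island 2, Wnt3a island 2 and Wnt9a, differed by 0.28 to 0.63. Without endoderm 1 the difference of Wnt2 was 0.57, and without the retinoic acid array that of Wnt10b island 2 was 0.42, both still past the threshold. The lower ones were 5 high ligand islands (Wnt7b island 1, Wnt3a island 1, Wnt4 island 2, Wnt3 island 5 and Wnt5b, from -0.79 to -0.56), Fzd5 (-0.67) and Axin1 (-0.34). These islands share their differentiated arrays with the comparison against adult tissue. No slide or scan day held both classes, and with slide as a block none of the 19 passed, with scan day 1 and with software version 2, so class and batch cannot be told apart.

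The 2 teratomas did not differ from adult tissue at any of the 61 Wnt islands (limma, 6 with an unadjusted p under 0.05, and none by the methods' t-test), where 26 of all islands passed (0.191%, 0.176% higher and 0.0147% lower). With 2 arrays the interval of each difference was wide, with a SE of 0.24 at Sfrp2 island 1 against 0.17 for the 5 differentiated arrays. Without teratoma 2, and with software version as a block, 1 island passed (Wnt1 island 2). Against differentiated ES cells 1 island passed, Sfrp2 island 1, where 6.81% of all islands passed (1.53% higher, 5.27% lower). It missed the threshold when either teratoma or endoderm 2 was left out, and without the retinoic acid array 5 islands passed. No teratoma array shared a slide or a scan day with any other array, so teratoma and batch cannot be told apart in either comparison. By the labels the teratomas came from J1 and the differentiated cells from EB5 and TT2. In that comparison parent line cannot be told apart either.

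In the pancreatic cell lines, with 1 array each and no test, several Wnt islands were high that were low in beta cells taken from the pancreas. Of 61 islands, 5 were above 0.75 in Min6 and below 0 in ex vivo beta cells (3.97% of all islands), 11 in aTC (6.11%), 4 in both lines (2.75%) and 12 in either (7.32%). Counted over the islands below 0 in beta cells, these were 19.2% and 42.3% of 26 Wnt islands, against 6.58% and 10.1% of 8210 islands. The 4 shared by both lines were Sfrp1, Lrp5, Fzd2 and Fzd10. Sfrp1, a Wnt-binding antagonist (chr8:24876832-24878060, 12 probes), read -0.32 in beta cells, 1.34 in Min6 and 1.77 in aTC. Its adult arrays ranged from -0.65 to 0.056 with a median of -0.25, embryos from -0.59 to -0.11, undifferentiated cells read -0.71 in EB5, -0.31 in J1 and -0.32 in TT2, differentiated arrays -0.78 in embryoid bodies, -0.46 in retinoic acid treated cells, -0.43 and -0.73 in the endoderm arrays and -0.42 in mesoderm and teratomas -0.83 and -0.53. No array outside the cell lines came near their values. Lrp5 (chr19:3685743-3686596, 7 probes) read -0.51, 1.32 and 1.59 in the same order, with adult arrays from -1.12 to 0.82 with a median of -0.15, embryos from -1.13 to -0.30, undifferentiated cells at -0.30 in EB5, -0.08 in J1 and -0.49 in TT2, differentiated arrays at -0.35 in embryoid bodies, -0.45 in retinoic acid treated cells, 0.28 and -0.77 in the endoderm arrays and -0.27 in mesoderm and teratomas at -0.89 and -0.55. Fzd2 read -0.06, 0.85 and 1.13, of which Min6 lay within the adult range.

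Receptor islands were mostly high in aTC, where 7 of 8 were above 0.75, against 23.1% of all islands. In Min6 4 of 8 were (19.5% of all islands) and in beta cells 1 of 8 (12.7%). Of the 7, Fzd10 at 0.79 and Fzd1 at 0.80 were only just past the mark. Fzd8 read 1.47, Fzd7 0.92 and Fzd6 0.86 in aTC, and 0.27, 0.16 and -0.048 in Min6. The second island of Lef1, a transcription factor that partners beta-catenin, read 1.31 in aTC and 0.38 in Min6, after -0.67 in beta cells. Among the antagonists Sfrp5 reached 1.85 in Min6 and 2.07 in aTC, and Dkk3 1.45 and 1.42, but both were already at 0.72 and 0.97 in beta cells. Wif1 and Dkk2 stayed below 0 in all 3 samples. Wnt3 island 1 was high in Min6 alone (0.80, against -0.19 in aTC), and its last 4 probes rose along the island, from 0.92 through 1.40 and 1.74 to 1.91. Wnt10a islands 2 and 3 were high in aTC and not in Min6 (1.55 and 1.51, against 0.22 and -0.54). Adult arrays at island 2 ranged from -0.93 to 1.08, with kidney 2, spleen 1 and liver 1 above 0.75.

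The ligand islands that were high in adult tissue were lower in the lines. The 9 had a median of 2.60 in adult tissue, 1.99 in beta cells, 1.15 in Min6 and 1.64 in aTC, and the 1004 islands high in all adult samples had 2.59, 2.14, 1.94 and 1.71. Both sets were picked for high adult values, which can by itself make other arrays look lower. In Min6 the lowest were Wnt7b island 2 at 0.42, Wnt3a island 1 at 0.61 and Wnt5b at 0.64, whose adult minima were 1.62, 2.30 and 2.11. Both lines had more islands above 0.75 over the whole array, 19.5% in Min6 and 23.1% in aTC against 12.7% in beta cells, and the lines shared a slide that the beta cell array did not. Cell line and slide cannot be told apart here, and the part of the scale was not tested.

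**Figure D5:**
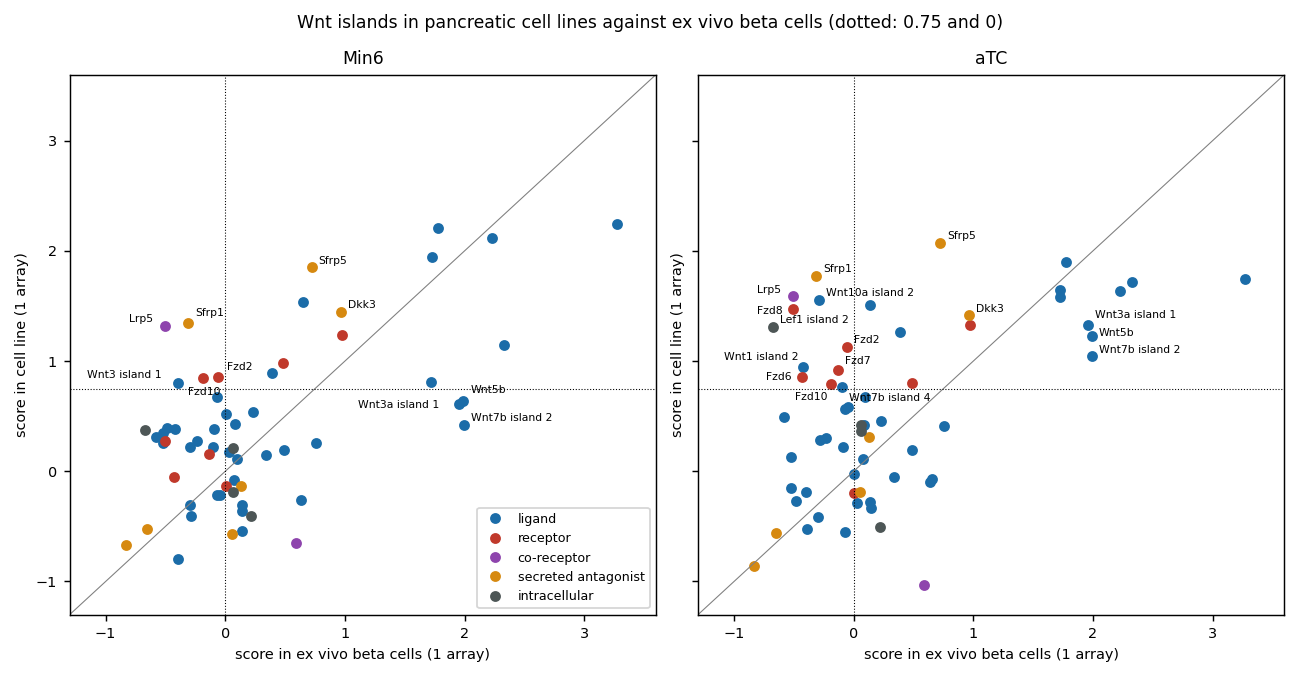
Island methylation score of the 61 islands in Min6 (left) and aTC (right, y axes) against ex vivo beta cells (x axes), 1 array each, coloured by role. Dotted lines mark 0.75 and 0 and the diagonal marks equal scores. Sfrp1, Lrp5, Fzd2 and Fzd10 lie above 0.75 in both lines and below 0 in beta cells.

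Other genes of the pathway, from a list of 82 in agonist, receptor, cytoplasmic, nuclear, polarity and target groups, had 94 islands at 61 genes. In differentiated ES cells against adult tissue 17 of these passed (18.1%, against 23.2% of all islands, 5 higher and 12 lower), with Kremen2, a receptor for Dkk proteins, higher by 0.86 and Dact1, a cytoplasmic regulator, different by -0.85. In undifferentiated cells, J1 included, 4 passed (4.26%, against 2.3%), with Prickle1 and Dact1 lower (-1.33 and -1.32). Without J1 5 passed (5.32%, against 8.45%), with Prickle1 and Dact1 at -2.24 and -2.30. Embryos differed from adult tissue at 9 of the 94 islands (9.57%, against 8.64%), the agonist Rspo1 being lower (-0.96) and the co-receptor Ptk7 higher (0.64). Between differentiated and undifferentiated cells none passed (limma, 16 with an unadjusted p under 0.05, against 5.43% of all islands passing), and without J1 3 did (3.19%, against 3.58%). None passed in teratomas against adult tissue (limma, 7 with an unadjusted p under 0.05, against 0.191% passing). Against embryos, differentiated cells differed at 19 (20.2%, against 21.1%), led by Rspo1 (1.61) and Dact1 (-0.94). In both comparisons with embryos, embryo and batch cannot be told apart. Teratomas differed from differentiated cells at 3 (3.19%, against 6.81%), led by Apc2 (1.19) and Kremen2 (-0.98). There teratoma, parent line and batch cannot be told apart.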

How the data were processed

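Methylated DNA was measured on 34 two-colour Agilent arrays, 1 per sample. The deposited files hold the scanner's log10 ratio of bound (Cy5) over input (Cy3) DNA, background-subtracted and linearly dye-normalised by Feature Extraction. The deposited median intensities of spot and local background were as scanned, without normalisation by the authors, and the deposited outlier and background flags are the software's. The authors' processed table holds a normalised score per probe, whose exact scale is not stated, and was an alternative. Spots flagged as outliers and 492 probes without coordinates were left out. Each array's ratios were turned into Z-scores over all probes, and an island (gaps up to 500 bases, at least 3 probes) was scored as their mean. The score is not corrected for CpG content, and the number of arrays limits its precision.

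Classes were compared over all 13616 islands by limma 3.58.1 in R 4.3.3, with Benjamini-Hochberg adjustment. The 4 classes adult tissue, embryo, undifferentiated and differentiated ES cells shared 1 fit, to which the 2 teratomas were added for their own comparisons, tissues were compared over the 16 adult arrays, and the interaction over 7 arrays of EB5, TT2 and their derivatives. p-values measure the spread between arrays. Tables and plots used Python 3.11.15. On simulated data with 200 of 13616 islands changed by 1, recovery was highest with differentiated ES cells set against adult tissue (96%) and lowest with differentiated set against undifferentiated cells (84%), of 5 comparisons. The simulated noise was independent between arrays, with no slide, scan day or grid effect. Most differences given above are smaller than 1, so these rates do not hold for them. Values per array are given for the islands with the largest differences past the threshold (10 for differentiated ES cells against adult tissue, 3 in other comparisons) and for the 3 highest in the cell lines among those below 0 in beta cells, 1 island per gene. Members and gene lists were chosen with earlier results of these data known. Replicate numbers were not taken as pairs, since the deviations of same-numbered arrays correlated above 0.1 in 14 of 28 pairs of tissues and not in all (-0.25 to 0.63). In 6 of 8 tissues the number goes with the grid, and replicate 1 of these 6 was scanned on 1 day. Alternatives covered normalisation, background, filters, island definition, batches and leaving out single arrays. In the class comparisons embryo, ES cell and teratoma arrays were left out in turn, and adult arrays only in the test between tissues.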

Additional observations from a re-analysis of the deposited data

Results flagged for a closer look

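Within classes of 5 arrays, 34 sets of values were examined for a single distant array by Dixon's ratio of gap to range (critical value 0.71), and 2 exceeded it, where chance gives about 1 in 20. At Sfrp2 island 1 the 8.5 dpc embryo read -0.20, above the other embryos, of which the nearest read -0.48 and the farthest -0.59, a ratio of 0.73. At Wnt2 the endoderm 1 array read 1.53, with the nearest differentiated array at 0.27 and the farthest at -0.16, a ratio of 0.745. The Wnt2 difference from adult tissue is given with and without that array above.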

How the results depend on the processing

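Sfrp2 island 1 and Wnt3 island 2 stayed past the threshold against adult tissue, in differentiated ES cells, in every alternative that gave a value. The counts of islands past the threshold moved more. Against adult tissue the 22 islands of differentiated ES cells became 9 after normexp on median signals, 8 of 29 in the authors' processed table, 11 of 40 with probes whose input was above background on every array, 12 of 37 with at least 5 probes, 12 with slide and 10 with scan day as a block, and 5 on the smaller grid. The 3 of undifferentiated ES cells became 0 with median-centred ratios, normexp, the methods' t-test, only the 2 classes compared, scan day or software version, 1 with bright probes, at least 5 probes or slide, and 6 in the processed table. The 6 of embryos became 0 with normexp, slide, scan day or software version and 1 on the smaller grid. Between differentiated and undifferentiated cells the 2 became 0 with normexp, medians over probes, the methods' t-test, only 2 classes, slide or the smaller grid, and 1 with median-centred ratios, the processed table or a wider gap allowed between probes. Against embryos the 19 became 2 with normexp, 9 in the processed table, 10 with bright probes, 12 by the methods' t-test, 0 with slide, 1 with scan day, 2 with software version and 11 on the smaller grid. Teratomas gained 1 island against adult tissue with software version as a block, and their 1 against differentiated cells became 0 with normexp, the methods' t-test, only 2 classes or software version and 2 in the processed table. In the cell lines a cut-off of 1 left 2 islands for Min6 and 6 for aTC. Embryo, ES cell and, where compared, teratoma arrays were left out 1 at a time, and adult arrays were not. This gave 17 to 24, 0 to 8, 5 to 7, 0 to 4 and 13 to 20 islands for these comparisons in order. It gave 0 to 1 for teratomas against adult tissue and 0 to 5 against differentiated cells. Without EB5, TT2, embryoid bodies, endoderm 1 or mesoderm 1 island passed between differentiated and undifferentiated cells. The cause was not tested.

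With the replicate number as a block 0 islands passed between tissues, and 0 for teratomas against adult tissue, as without it. Normexp on mean signals was not run, since part of the scanner files used here give medians only. A block for slide or scan day could not be fitted for teratomas, nor slide, scan day or software version between tissues, nor the interaction without EB5 or TT2. Normexp on median signals, Z-scores over shared probes, the smaller grid alone and the other pathway genes without J1 were chosen after seeing the data. Input signal was well above background at 62.4% of probes on the lowest array.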
